A study of Mus musculus with 6 samples.

Results

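The 10 genes described here are *Trp53*, its negative regulator *Mdm2*, the p53 targets *Cdkn1a*, *Ccng1*, *Sesn1*, *Trp53inp1*, *Bax*, *Bbc3* and *Pmaip1*, and the BH3-only gene *Bcl2l11*. They were found by gene symbol in a table of 23420 listed genes, where each had 1 row. The table gives bulk RNA-Seq of whole mouse lungs at embryonic day E11.5, in 3 control pools and 3 mutant pools with 3 or 4 lungs in each pool. Mutant lungs were *Rptor f/f; Shh Cre/+*. The paper's methods name *Rptor f/+; Shh Cre/+* littermates as controls at a later stage, and its supplement labels the controls of this stage *Shh Cre/+*. All 6 pools thus carried 1 *Shh Cre* allele. Whether the control pools also carried 1 floxed *Rptor* allele is not settled by the paper. *Rptor* encodes Raptor, a required subunit of the kinase complex mTORC1. The Cre recombinase was driven from the *Shh* locus and acts in the lung epithelium, whereas the RNA came from all cells of the lung.

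p53, the protein of *Trp53*, is a transcription factor that is kept low by the ubiquitin ligase MDM2 and accumulates after DNA damage or when ribosome production is disturbed. It activates genes for cell cycle arrest, for stress responses and for cell death, together with *Mdm2* itself, which closes a feedback loop. BH3-only proteins bind the pro-survival members of the BCL-2 family or activate BAX and BAK, which permeabilise the outer mitochondrial membrane and so start the caspase cascade. BIM, the product of *Bcl2l11*, is best known as a target of FoxO factors rather than of p53. Much of the control of p53 acts on protein stability, which RNA levels do not measure. The comparison of the pools asks whether the transcripts of these genes differed between lungs that lose *Rptor* in the epithelium by genotype and control lungs.

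The DNA near the start of these genes was searched for an exact match to the consensus of the p53 half-site. This is the 10-base element of which p53 tetramers bind a pair. The search covered the 300 bases around each annotated start (250 before it and 50 after it), taken from RefSeq for GRCm38.p6. The consensus reads the same on both strands, so 1 search covers both. Of the 8 genes with a RefSeq promoter entry, 6 held a match in at least 1 window (6 of 13 windows). Over all 27025 genes with an entry, 9.55% held a match (8.36% of 32851 windows). *Pmaip1* and *Trp53inp1* had no entry. In the sequences, given 5′ to 3′ on the strand of the gene, capitals mark the half-site and lower case the 15 bases on each side and, in *Cdkn1a*, the bases between its 2 half-sites.
Trp53: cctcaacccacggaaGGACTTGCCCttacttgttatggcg
Mdm2: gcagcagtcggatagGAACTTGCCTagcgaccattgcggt
Cdkn1a: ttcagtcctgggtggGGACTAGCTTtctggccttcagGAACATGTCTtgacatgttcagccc
Ccng1: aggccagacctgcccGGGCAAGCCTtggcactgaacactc
Sesn1: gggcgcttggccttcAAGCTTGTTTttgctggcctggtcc
Bax: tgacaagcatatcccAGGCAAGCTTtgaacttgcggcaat
These stretches lie at chr11:69580269-69580308 (plus strand) for *Trp53*, chr10:117710920-117710959 (minus strand) for *Mdm2*, chr17:29090891-29090952 (plus strand) for *Cdkn1a*, chr11:40755447-40755486 (minus strand) for *Ccng1*, chr10:41887251-41887290 (plus strand) for *Sesn1* and chr7:45467075-45467114 (minus strand) for *Bax*. Relative to the annotated start, the first base of the half-site was at -75 in *Trp53*, -186 in *Mdm2*, -73 and -51 in *Cdkn1a*, -185 in *Ccng1*, -173 in *Sesn1* and -201 in *Bax*. The match of *Cdkn1a* was in the first of its 2 annotated starts and that of *Sesn1* in the second of 2. The windows of *Bbc3* and *Bcl2l11* held no match to these letters, and a match is a description of the DNA rather than a bound site.

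Before the values, the libraries and their labels were examined. Each library held between 20197642 and 21276090 reads in genes, recovered from the deposited normalized counts. *Rptor*, the targeted gene, had 2126, 2193 and 2279 normalized counts in the controls (pools 1, 2 and 3 in this order, here and later) against 2023, 2137 and 2148 in the mutants, and its groups overlapped (log2 fold change -0.06, limma adjusted p = 0.584). These counts cover all exons and all cells of the lung, so they do not measure the deletion in the epithelium. The summed level of 20 epithelial markers was 20363 to 24252 in control pools and 16358 to 17671 in mutant pools. Of the 20, 18 had a log2 fold change below 0, 7 of them past the adjusted threshold (0.501% of all tested genes passed, in either direction). The list was not uniform, as 2 markers were above 0, with a highest log2 fold change of 0.44. At an unadjusted limma p under 0.05, 16 markers were lower and 1 was higher (6.89% and 6.67% of all genes). Of these markers, *Cdh1* (E-cadherin) fell from 1439 ± 131 to 736 ± 97.7 (mean ± SD, n = 3 pools in each group, log2 fold change -0.97, adjusted p = 0.00728), while *Epcam* (-0.27, adjusted p = 0.300) and *Nkx2-1* (-0.25, adjusted p = 0.218) did not pass. The call of *Cdh1* was lost in limma without the trend (adjusted p = 0.181) and without control pool 1 (0.126) or mutant pool 3 (0.0709), and *Epcam* and *Nkx2-1* passed without control pool 3 (adjusted p = 0.0120 and 0.00109). The summed level of 14 mesenchymal markers was 117622 to 124077 in control pools and 139581 to 148098 in mutant pools, and 4 of the 14 were higher past the adjusted threshold. Among the markers of other cell types, 0 of 8 endothelial, 0 of 7 red blood cell, 0 of 10 macrophage, 0 of 7 neural and 0 of 7 heart muscle genes passed the adjusted threshold in limma, whereas 1 of 5 mesothelial genes, *Wt1*, did. At an unadjusted p under 0.05 the counts were 5, 0, 0, 2 and 1, where 13.6% of all tested genes had such a p. The 5 endothelial genes were higher in the mutant pools, and the 2 neural and 1 heart muscle genes were lower. The log2 fold change was above 0 in 7 of 8 endothelial and 10 of 10 macrophage genes. It was below 0 in 5 of 7 neural and 5 of 7 heart muscle genes.

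None of the 10 genes passed the test for a difference between control and mutant lungs. At a limma adjusted p under 0.05, adjusted over the 17168 genes tested, 0 of the 10 were called, where 0.501% of all tested genes (86 genes) were. With edgeR's quasi-likelihood test on the recovered reads, 0 of the 10 were called as well. At an unadjusted p under 0.05, 2 of the 10 were higher in the mutant pools (*Ccng1* and *Sesn1*, against 6.67% of all genes) and 0 were lower (against 6.89%). Every mutant pool lay above every control pool for the same 2 genes (9.77% of all genes), and every mutant pool lay below every control pool for 1, *Mdm2* (10.5% of all genes). Across the 10 genes, 6 log2 fold changes were above 0 and 4 below, with a median of 0.01 beside a median of 0.00 for all genes tested. In whole-lung RNA, fewer cells of a type and less RNA per cell cannot be told apart, and RNA of the epithelium was averaged with that of the other cells. All 10 genes passed the filter on low values.

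**Figure D1:**
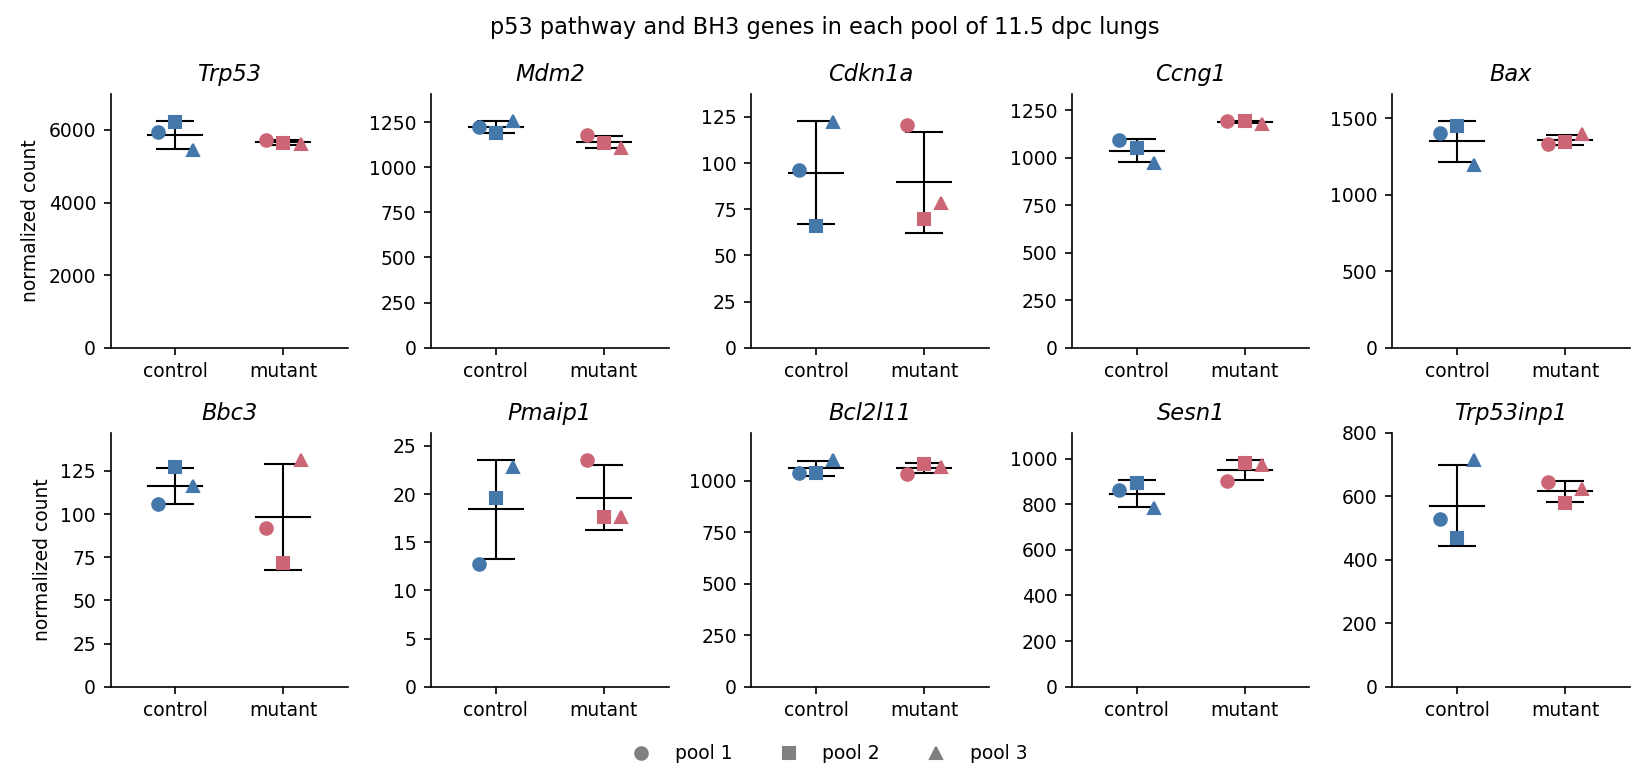
Normalized count (vertical axis, from 0) of each of the 10 genes in each pool of E11.5 lungs, with control pools in blue, mutant pools in red and a marker shape for the pool number; the horizontal line is the mean and the bars are 1 SD (n = 3 pools). The groups are separate in *Ccng1* and *Sesn1* (mutant pools higher) and in *Mdm2* (mutant pools lower) and overlap in the other 7 genes.

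*Trp53* (chromosome 11 of GRCm38, 69580359 to 69591873, plus strand) was the most abundant of the 10 genes. Its normalized counts were 5934, 6214 and 5445 in the controls against 5733, 5632 and 5604 in the mutants. The mutant pools lay close together and inside the span of the control pools. The mean was 5864 ± 389 in control and 5656 ± 68.1 in mutant lungs (SD, n = 3), giving a log2 fold change of -0.05 (95% interval -0.16 to 0.06, limma adjusted p = 0.709). The interval corresponds to a ratio of mutant to control between 0.895 and 1.04. A processed pseudogene of *Trp53*, on chromosome 17 in the annotation, has no row of its own in the table, so reads that match both copies may have been counted in *Trp53* or left out.

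*Mdm2* (chromosome 10, 117688875 to 117710758, minus strand), which encodes the ligase that marks p53 for degradation and is itself a p53 target, had normalized counts of 1225, 1189 and 1257 in the controls against 1179, 1132 and 1109 in the mutants. Each mutant pool was below each control pool, the closest being control pool 2 and mutant pool 1. The mean was 1224 ± 34.2 in control and 1140.2 ± 35.6 in mutant lungs (SD, n = 3), and the difference did not pass the threshold (log2 fold change -0.10, 95% interval -0.21 to 0.01, limma adjusted p = 0.403). *Mdm4*, which encodes a partner of MDM2 that also restrains p53, was at 1226, 1124 and 1523 in the controls against 1089, 1183 and 1115 in the mutants, where control pool 3 stood highest and the groups overlapped (log2 fold change -0.18, adjusted p = 0.438). Without control pool 3 the log2 fold change of *Mdm4* was -0.06, and without control pool 2 it was -0.28. In the separate pools, the log2 ratio of *Mdm2* to *Trp53* was -2.28, -2.39 and -2.11 in the controls against -2.28, -2.31 and -2.34 in the mutants. The mutant ratios lay within the span of the control ratios, and the mean ratio differed by -0.05. The log2 ratio of *Mdm2* to *Mdm4* was 0.00, 0.08 and -0.28 in the controls against 0.11, -0.06 and -0.01 in the mutants, again with overlap.

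Among the p53 targets outside the BCL-2 family, *Ccng1* had the lowest p of the 10 genes. *Ccng1* (chromosome 11, 40748552 to 40755311, minus strand) encodes cyclin G1, which takes part in the feedback on p53 through MDM2. Its normalized counts were 1091, 1049.6 and 969 in the controls against 1191, 1190.3 and 1179 in the mutants. The mutant pools were almost equal to each other and all lay above the highest control pool. From 1037 ± 62.1 in control lungs to 1187 ± 6.96 in mutant lungs (SD, n = 3) the ratio was 1.15 (95% interval 1.05 to 1.25, on the scale of the normalized count + 1), a log2 fold change of 0.20 with a standard error of 0.06. The unadjusted limma p was 0.00526 and the adjusted p 0.1596. With edgeR the log2 fold change was 0.19 (adjusted p = 0.149). Over the other settings and the fits without 1 pool, the adjusted p of *Ccng1* was between 0.137 and 0.470, and the log2 fold change without 1 pool between 0.15 and 0.23.

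*Sesn1* (chromosome 10, 41809935 to 41908424, plus strand) encodes sestrin 1, a p53 target of the family that inhibits mTORC1 through GATOR2. It had 863, 894 and 783 normalized counts in the controls against 901, 982 and 969.7 in the mutants. The mutant pools were all above the controls, with control pool 2 and mutant pool 1 nearest to each other. The mean was 847 ± 57.0 in control and 951 ± 43.7 in mutant lungs (SD, n = 3), giving a log2 fold change of 0.17 (95% interval 0.02 to 0.31, limma adjusted p = 0.290). The unadjusted p no longer fell under 0.05 in limma without the trend or without control pool 3, mutant pool 2 or mutant pool 3. The other sestrins, of which *Sesn2* is induced by p53 and by the integrated stress response and *Sesn3* by FoxO factors, went the other way in sign. *Sesn2* was at 285 ± 24.6 in control and 265 ± 11.01 in mutant lungs (log2 fold change -0.11, adjusted p = 0.663, groups overlapping). *Sesn3* was at 910.1 ± 15.2 and 848 ± 33.1 (log2 fold change -0.10, adjusted p = 0.437), with each mutant pool below each control pool. Neither difference passed the adjusted threshold, and the difference between the sestrins was not tested.

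*Cdkn1a* (chromosome 17, 29090976 to 29100727, plus strand), which encodes the CDK inhibitor p21 and is the most used readout of p53 activity, was measured with wide error. Its normalized counts were 96.3, 66.1 and 122 in the controls against 121, 69.6 and 78.5 in the mutants. High and low pools occurred in both groups. The mean was 94.9 ± 28.1 in control and 89.6 ± 27.2 in mutant lungs (SD, n = 3), and the log2 fold change of -0.08 had a 95% interval from -0.64 to 0.48 (limma adjusted p = 0.920). The coefficient of variation was 29.6% among control and 30.4% among mutant pools, beyond the 10.4% that counting alone gives at this level. The sign of the estimate depended on single pools, from -0.31 without control pool 2 to 0.12 without control pool 3. An unnamed transcript annotated on the opposite strand overlaps exons of *Cdkn1a*, and whether the counting used strand is not given in the sources used here.

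*Trp53inp1* (chromosome 4, 11156431 to 11174379, plus strand) encodes a nuclear protein that promotes the pro-apoptotic activity of p53. It had 529, 468 and 716 normalized counts in the controls against 646, 580.4 and 623 in the mutants, so that control pool 3 was the highest and control pool 2 the lowest of all. The mean was 571 ± 129 in control and 616 ± 33.2 in mutant lungs (SD, n = 3), giving a log2 fold change of 0.13 (95% interval -0.16 to 0.42, limma adjusted p = 0.709). A single pool decided the size of this estimate, which was 0.31 without control pool 3 (adjusted p = 0.0524) and near 0 without control pool 2.

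**Figure D2:**
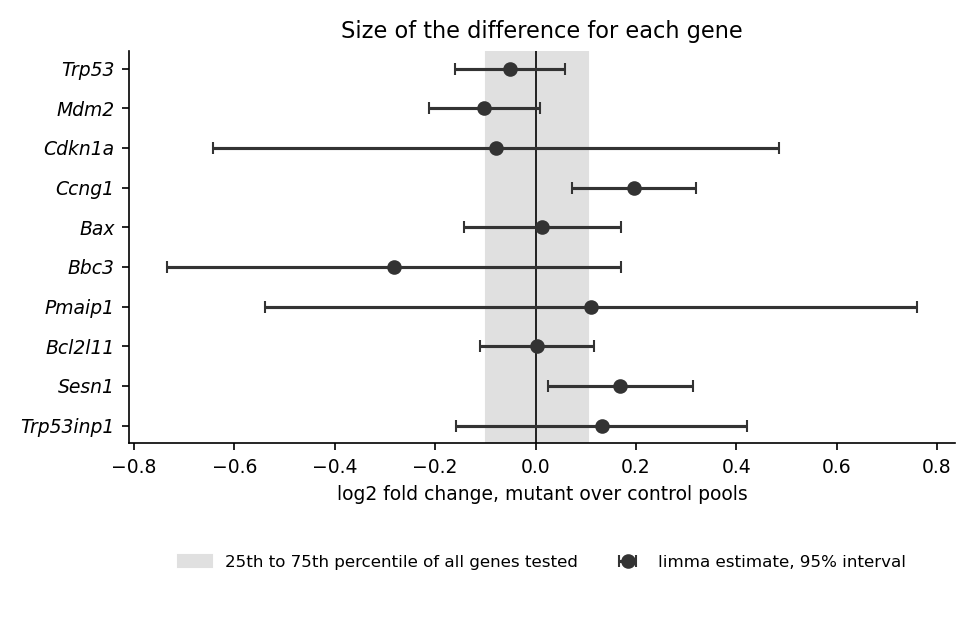
Log2 fold change of mutant over control pools (horizontal axis, on the scale of the normalized count + 1) for each gene, with dots for the limma estimate and bars for its 95% interval; the grey band spans the 25th to the 75th percentile of all 17168 genes tested (-0.10 to 0.10). The intervals of *Ccng1* and *Sesn1* lie above 0, and those of *Cdkn1a*, *Bbc3* and *Pmaip1*, the genes with the fewest reads, are the widest.

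The cell death genes of the BCL-2 family showed no difference past the threshold either. *Bax* (chromosome 7, 45461697 to 45466898, minus strand) encodes an effector that forms the mitochondrial pore. Its normalized counts were 1406, 1448 and 1197 in the controls against 1334, 1343 and 1398 in the mutants. The mutant pools lay within the span of the control pools, of which control pool 3 was the lowest. The mean was 1350.2 ± 135 in control and 1358 ± 34.3 in mutant lungs (SD, n = 3), giving a log2 fold change of 0.01 (95% interval -0.14 to 0.17, limma adjusted p = 0.953). Exons of a second protein-coding gene model on the same strand overlap those of *Bax* and have no row in the table, so reads of the shared exons may have been left out of its count. *Bak1*, the other effector, had a log2 fold change of 0.02 (2174 ± 144 in control and 2204 ± 5.67 in mutant lungs, adjusted p = 0.897).

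*Bcl2l11* (chromosome 2, 128126038 to 128162547, plus strand), which encodes the BH3-only protein BIM, was the most evenly expressed of these genes. Its normalized counts were 1040.2, 1037 and 1102 in the controls against 1035, 1083 and 1069 in the mutants. The groups overlapped almost entirely, with means of 1059.9 ± 36.8 and 1062 ± 24.8 (SD, n = 3). The log2 fold change was 0.00 with a 95% interval from -0.11 to 0.12 (limma adjusted p = 0.983), a ratio between 0.927 and 1.08. The spread among control pools (3.47%) and among mutant pools (2.34%) was near the 3.07% that counting alone gives.

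*Bbc3* (chromosome 7, 16308393 to 16318205, plus strand) encodes PUMA, the BH3-only protein that p53 induces in many tissues. It had 106, 127 and 116 normalized counts in the controls against 92.0, 71.6 and 132 in the mutants. The lowest pools were mutant pools 1 and 2, but mutant pool 3 was the highest of all 6. The mean was 116 ± 10.5 in control and 98.4 ± 30.5 in mutant lungs (SD, n = 3), giving a log2 fold change of -0.28 (95% interval -0.74 to 0.17, limma adjusted p = 0.586). The spread among mutant pools was 31.0%, beyond the 9.64% expected from counting. Without mutant pool 3 the log2 fold change was -0.51 (adjusted p = 0.470) and without mutant pool 2 it was -0.08.

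*Pmaip1* (chromosome 18), which encodes NOXA, a BH3-only protein that neutralises MCL1, was near the limit of what this depth can compare, with 13 to 23 reads in a library. Its normalized counts were 12.8, 19.6 and 22.9 in the controls against 23.5, 17.6 and 17.7 in the mutants. The groups overlapped, and the spread was close to the 22.9% that counting alone gives. With means of 18.4 ± 5.15 and 19.6 ± 3.37 (SD, n = 3), the log2 fold change of 0.11 had a 95% interval from -0.54 to 0.76 (limma adjusted p = 0.905), so ratios from 0.688 to 1.69 lay within the error.

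**Figure D3:**
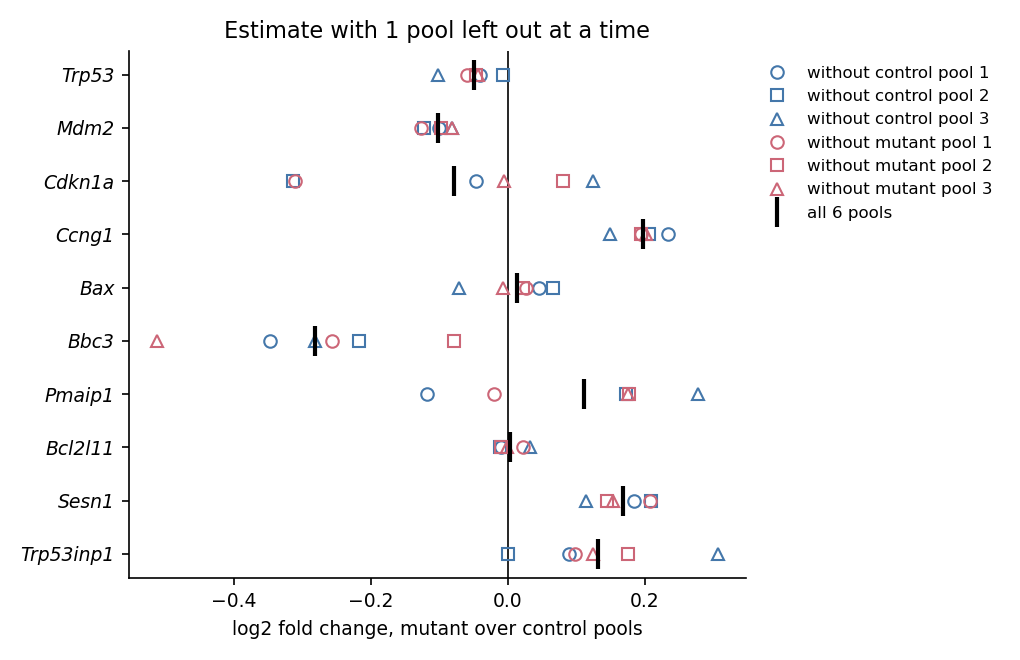
Log2 fold change of mutant over control pools (horizontal axis) for each gene with all 6 pools (black bar) and with 1 pool left out (open symbols, blue for a control pool and red for a mutant pool left out, shape for its number). Every symbol is above 0 for *Ccng1*, *Sesn1* and *Trp53inp1* and below 0 for *Trp53*, *Mdm2* and *Bbc3*, while the estimates of *Cdkn1a*, *Bax*, *Pmaip1* and *Bcl2l11* fall on both sides of 0.

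Control pool 3 often held an extreme value in these genes, and how often it did so over all tested genes was not counted. Of the 10 genes, it was the highest of the 6 pools in 4 and the lowest in 4, and it was farthest from the mean of all pools in 6. It was the highest pool in *Mdm2*, *Cdkn1a*, *Bcl2l11* and *Trp53inp1* and the lowest in *Trp53*, *Ccng1*, *Bax* and *Sesn1*. Without it, the log2 fold change was -0.10 for *Trp53* (limma adjusted p = 0.164) and 0.15 for *Ccng1* (adjusted p = 0.137), and 0 of the 10 genes passed the adjusted threshold, while the number of genes called among all those tested went from 86 to 464. Among the control pools, control pool 3 was the lowest in the 3 named epithelial markers *Cdh1* (1288), *Epcam* (1560) and *Nkx2-1* (2060). The part of the epithelial share in its extreme values was not tested.

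Levels were compared between genes per kilobase of annotated exon. *Trp53* was highest, at 1346 to 1536 normalized counts per kilobase over the 6 pools, and *Bax* followed at 759 to 919. *Ccng1* (276 to 339) came next, and *Mdm2* (218 to 247) and *Sesn1* (197 to 247) overlapped. *Bcl2l11* was at 129 to 137 and *Trp53inp1* at 72.3 to 111. The lowest were *Bbc3* (33.7 to 61.9) and *Cdkn1a* (18.6 to 34.4), whose ranges touched, and *Pmaip1* (4.67 to 8.60). The transcripts of p53 and of its regulator were thus far above that of the arrest gene *Cdkn1a* in every pool, and among BH3-only genes *Bcl2l11* was above *Bbc3* and *Bbc3* above *Pmaip1* in every pool.

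**Figure D4:**
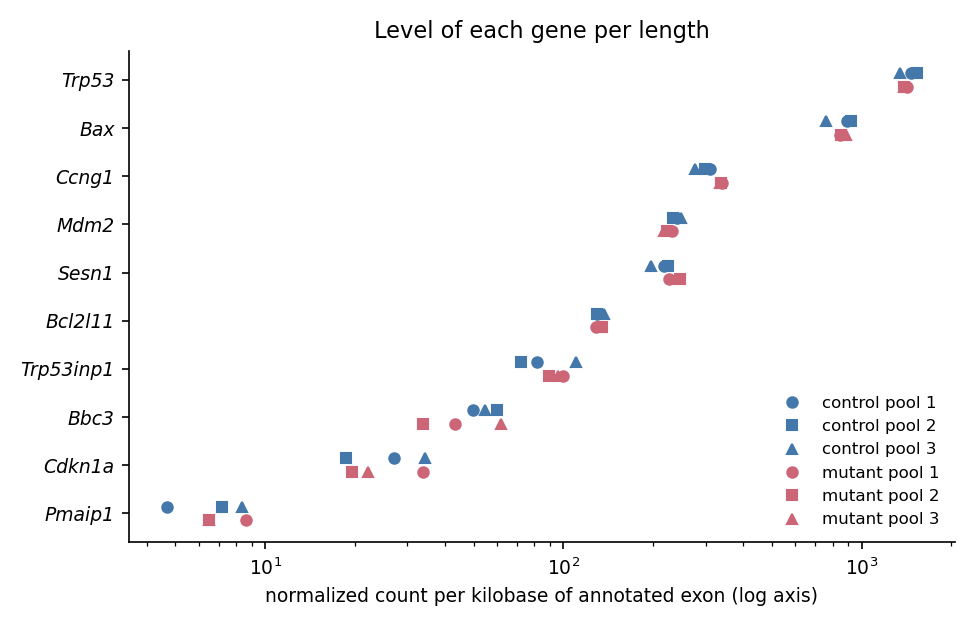
Normalized count per kilobase of annotated exon (horizontal log axis) for the 10 genes, ordered by their mean, with control pools in blue above mutant pools in red and shape for the pool number. The order of the genes spans from 4.67 for the lowest pool of *Pmaip1* to 1536 for the highest pool of *Trp53*, and control and mutant pools sit beside each other on this scale.

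The other genes of the pathway were taken from lists. Of 25 regulators of p53, which include its kinases, acetyltransferases, ligases and family members, 24 were tested and 0 were called by limma or by edgeR, with 0 at an unadjusted limma p under 0.05. Over all tested genes, 0.501% were called and 13.6% had an unadjusted p under 0.05. The median log2 fold change was -0.02, and 11 were above 0 and 13 below. *Cdkn2a*, which encodes the MDM2 inhibitor ARF and the CDK inhibitor p16, had 0 to 3 reads in a library and was not tested. The p53 relatives were low, with 7 to 90 reads for *Trp63*, a marker of basal cells, and 0 to 6 for *Trp73*. *Trp63* was highest in control pool 3 (89.5 normalized counts) and lowest in control pool 2 (7.23), and its log2 fold change of -0.41 had an adjusted p of 0.857.

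Of 47 other p53 target genes, 1 was called, and it was lower in the mutant pools. *Aen*, which encodes an apoptosis-enhancing nuclease, had normalized counts of 864, 880.2 and 783 in the controls against 653, 668 and 633 in the mutants, so that the mutant pools were all well below the controls. It fell from 843 ± 52.0 to 651 ± 17.4 (SD, n = 3), a log2 fold change of -0.37 and a standard error of 0.06 (limma adjusted p = 0.0399). *Aen* passed with edgeR (adjusted p = 0.0398) and did not pass in limma without the trend (adjusted p = 0.226) or in the fits without control pool 1 (adjusted p = 0.259), control pool 2 (0.0550), mutant pool 1 (0.1599), mutant pool 2 (0.136) or mutant pool 3 (0.268). At an unadjusted p under 0.05, 2 of the 47 genes were higher and 7 were lower, against 6.67% and 6.89% of all genes, and the median log2 fold change was -0.02.

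*Btg2*, an antiproliferative p53 target named here after its value was seen, came next. Its normalized count was 750.1 ± 59.5 in control and 563 ± 34.9 in mutant lungs (SD, n = 3), with no overlap and a log2 fold change of -0.41 that did not pass the threshold (limma adjusted p = 0.0512). *Btg2* passed with upper-quartile scaling (adjusted p = 0.0497) and without control pool 3 (0.00596), and its adjusted p reached 0.241 in limma without the trend and 0.272 without control pool 1. *Phlda3*, which encodes a p53-induced inhibitor of AKT, went in the opposite direction, at 673, 669 and 582 in the controls against 759, 788 and 748 in the mutants (log2 fold change 0.26, adjusted p = 0.150, no overlap). *Perp*, a p53 target that is also a component of epithelial desmosomes, was at 62.2 ± 25.2 and 32.4 ± 12.5 (log2 fold change -0.90, adjusted p = 0.270, groups overlapping). *Zmat3*, an RNA-binding tumor suppressor (-0.08, adjusted p = 0.823), and *Gadd45a*, a growth arrest gene induced by DNA damage (-0.07, adjusted p = 0.855), had log2 fold changes near those of most genes. Of the 47 genes, 21 had a log2 fold change above 0 and 26 below. The summed epithelial markers were lower in each mutant pool than in each control pool, as were *Aen* and *Btg2*, and the part of the epithelial share in these values was not tested.

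Of 21 other BCL-2 family genes, 18 were tested and 0 were called by limma or by edgeR, and at an unadjusted limma p under 0.05, 2 were higher and 2 were lower (0.501% of all genes called, 6.67% higher and 6.89% lower). The median log2 fold change was 0.00. *Bcl2*, the pro-survival founder of the family, was at 796, 863 and 828 in the controls against 877, 989 and 916 in the mutants, with every mutant pool higher (log2 fold change 0.16, limma adjusted p = 0.291). The other pro-survival genes differed less, with log2 fold changes of 0.03 for *Bcl2l1* (adjusted p = 0.797) and -0.01 for *Mcl1* (adjusted p = 0.969). Among the death-promoting genes, *Bid* was at -0.10 (adjusted p = 0.756) and *Bmf*, a BH3-only gene tied to cell attachment, at 0.18 (adjusted p = 0.248). *Bcl2l14* was at 23.6, 35.1 and 14.9 in the controls against 10.2, 9.80 and 5.89 in the mutants (log2 fold change -1.36, adjusted p = 0.150), and *Bcl2l13* had a log2 fold change of -0.11 (adjusted p = 0.242). In both genes the mutant pools were all below the controls, as they were for 10.5% of all genes. *Bcl2l14* passed the threshold without control pool 3 (adjusted p = 0.0331).

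The balance between death and survival genes was also set side by side within pools, where the size factor cancels. The log2 ratio of *Bax* to *Bcl2* was 0.82, 0.75 and 0.53 in the controls against 0.61, 0.44 and 0.61 in the mutants. The mutant ratios were on the low side but overlapped with control pool 3, with means of 0.70 ± 0.15 and 0.55 ± 0.10 (SD, n = 3). The log2 ratio of the summed BH3-only genes *Bbc3*, *Pmaip1* and *Bcl2l11* to the summed pro-survival genes *Bcl2*, *Bcl2l1* and *Mcl1* was -2.61, -2.58 and -2.49 in the controls against -2.55, -2.66 and -2.59 in the mutants. These overlapped too, and the means differed by -0.04. With the BH3-only gene *Bmf* added to the sum, chosen after its value was seen, the log2 ratio was -1.43, -1.35 and -1.30 in the controls against -1.16, -1.42 and -1.26 in the mutants. The groups still overlapped and the means differed by 0.08, so the sign depended on the genes summed.

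Of 28 caspase, apoptosome and death receptor genes, 28 were tested and 0 were called by limma or by edgeR, with 2 higher and 1 lower at an unadjusted limma p under 0.05 (0.501% of all genes called, 6.67% higher and 6.89% lower) and a median log2 fold change of -0.01. Of the genes of the mitochondrial route, the log2 fold change was 0.04 for the initiator *Casp9* (933 ± 18.4 and 959 ± 17.2, SD, n = 3, adjusted p = 0.775) and 0.00 for *Apaf1*, which builds the apoptosome (adjusted p = 0.983). The genes with the lowest p were *Birc6*, a large inhibitor of apoptosis (-0.15, adjusted p = 0.214), *Tnfrsf1a*, a receptor for TNF (0.18, adjusted p = 0.241), and *Casp12*, which had 1 to 6 reads in a library (adjusted p = 0.242), and these did not pass the adjusted threshold.

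Because *Bcl2l11* and *Sesn3* are FoxO targets and p21 has relatives, 20 FoxO and CDK inhibitor genes were listed as well. All 20 were tested and 0 were called by limma or by edgeR, with 3 higher and 1 lower at an unadjusted limma p under 0.05 (0.501% of all genes called, 6.67% higher and 6.89% lower) and a median log2 fold change of 0.04. *Cdkn1b*, which encodes p27 and is a FoxO target, was at 770.1, 720.1 and 799 in the controls against 959, 889 and 869.6 in the mutants, so that every mutant pool was higher. Its log2 fold change was 0.25 (limma adjusted p = 0.132), and it passed without control pool 3 (adjusted p = 0.0320). *Ccng2*, a FoxO-induced relative of *Ccng1*, had a log2 fold change of 0.23 (adjusted p = 0.216), and *Cdkn1c*, which encodes p57, one of 0.11 (adjusted p = 0.217), both without overlap. *Ccng2* passed without control pool 3 (adjusted p = 0.0169). *Foxo1* (0.14, adjusted p = 0.494) and *Foxo3* (0.03, adjusted p = 0.8797) overlapped between the groups. In the whole list, the mutant pools were all above the controls in 3 of 20 genes and all below in 2, against 9.77% and 10.5% of all genes.

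**Figure D5:**
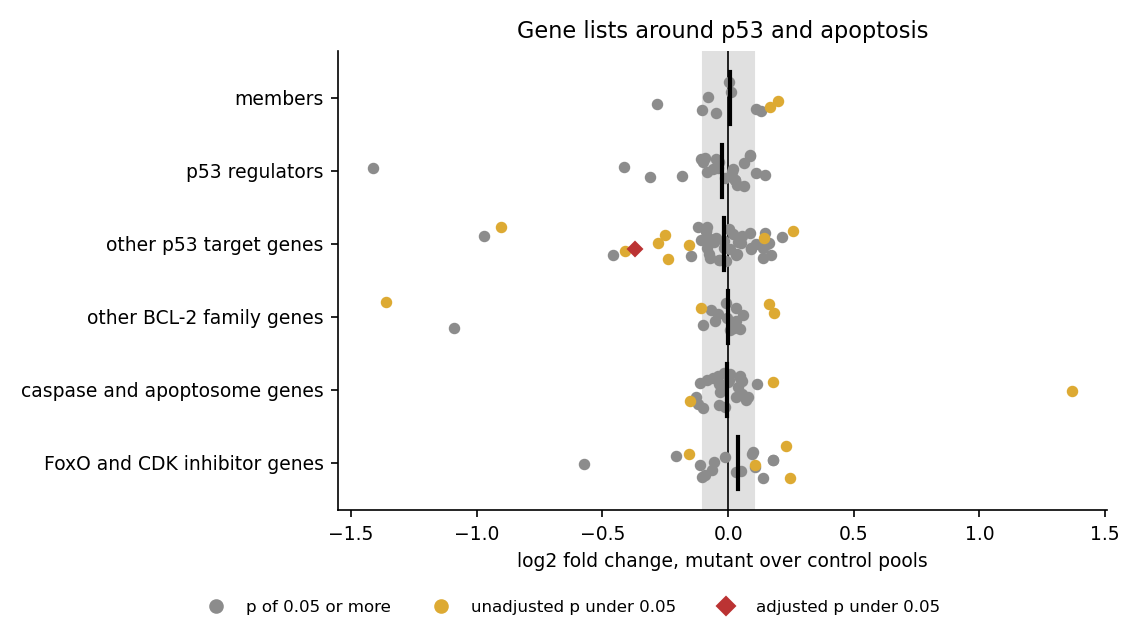
Log2 fold change of mutant over control pools (horizontal axis) for the 10 genes and for the tested genes of the 5 lists (rows), 1 dot for each gene, with gold for an unadjusted p under 0.05, a red diamond for an adjusted p under 0.05 and a black bar for the median of the list; the grey band spans the 25th to the 75th percentile of all genes tested. The medians lie between -0.02 and 0.04, and the 1 red diamond is *Aen* among the other p53 target genes.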

How the data were processed

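RNA from whole E11.5 lungs was pooled by genotype, 3 or 4 lungs in each of 6 pools, and sequenced on the BGISEQ-500 platform. Groups and pool numbers are those of the sample labels. The authors deposited normalized counts (a signal per gene, its reads over the size factor of that library) next to 6 columns of their own comparison, which hold a mean, fold changes, errors, a test statistic and p-values and were not used. The submitters' processing notes name Trim Galore, HISAT2, featureCounts, DESeq2 and mm10, without versions, role or order.

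All values of the 6 libraries were whole multiples of 1 step for each library (tolerance 0.0001), which gave the reads. The 17168 of 23420 genes that reached 1 in 3 or more libraries were compared with limma 3.58.1 in R 4.3.3 on log2(normalized count + 1), with a mean-variance trend, Benjamini-Hochberg adjustment over all tested genes and a threshold of 0.05. On this scale the fold changes of low genes come out too small. edgeR 4.0.16 on the recovered reads (quasi-likelihood test, TMM, filterByExpr) was an alternative. The others were limma without the trend, upper-quartile scaling (75th percentile), a filter that asks for 10 or more in all libraries, testing unfiltered genes, a smaller pseudocount (0.1), a replicate block and leaving out each pool. Pools hold separate embryos, so the spread between pools is biological and technical together.

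The 10 genes, the 5 gene lists and the 8 lists of cell markers were chosen with earlier results of these data known. Named genes are the 10 genes, *Rptor*, 20 fixed pathway genes (a further gene of this set is not reported here), 3 epithelial markers and, from each list, up to 5 genes with an adjusted p under 0.05 or else up to 3 with the lowest unadjusted p under 0.05. *Btg2* and *Wt1* fall outside this rule. *Pidd1* and *Apaf1* are in 2 lists. An older symbol matched 3 targets, 1 regulator of p53, 1 gene of the caspase list, 1 red blood cell marker and 1 macrophage marker. Positions and exon lengths are from GENCODE M21 (GRCm38), and promoter sequences from RefSeq (GRCm38.p6). Symbols of 27 genes had become dates in the deposited values and were kept so.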

Additional observations from a re-analysis of the deposited data

How the results depend on the processing

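The count of 0 called genes among the 10 held in all 13 alternatives, and no alternative other than leaving out a pool reversed a named gene. Among the other p53 target genes, 1 was called with all pools, 0 in limma without the trend, 2 with upper-quartile scaling and 0 to 3 with 1 pool left out. With 1 pool left out, 0 to 1 other BCL-2 family genes and 0 to 2 FoxO and CDK inhibitor genes were called, the highest counts being those without control pool 3, and over all genes tested 1 to 464 (86 with all pools, 8 in limma without the trend). The log2 fold change changed sign with 1 pool left out in *Cdkn1a* (-0.31 to 0.12), *Bax* (-0.0711 to 0.0665), *Pmaip1* (-0.12 to 0.28), *Bcl2l11* (-0.0115 to 0.0323), *Trp63* (-1.35 to 0.38), *Zmat3* (-0.24 to 0.0609), *Mcl1* (-0.0323 to 0.0426), *Bak1* (-0.0346 to 0.0508), *Bid* (-0.21 to 0.0084), *Apaf1* (-0.0292 to 0.0667) and *Foxo3* (-0.0403 to 0.0874). The cause was not tested. With the replicate number as a block, 71 genes were called over all genes, 0 of the 10 genes and 1 other p53 target gene, and the adjusted p of *Ccng1* was 0.175. The numbers were not taken to pair the pools, because pools hold separate embryos. The deviations of same-numbered pools from their group means correlated at 0.00, 0.19 and 0.04. For pools with different numbers these correlations lay between -0.18 and 0.16. At 13 to 23 reads a library, depth limited the comparison of *Pmaip1*, whereas the spread of *Cdkn1a* and of the mutant pools of *Bbc3* was beyond counting error.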
